A study of Drosophila melanogaster with 88 samples.

Results

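The genes described here code for cuticle and corneal lens proteins of the fly. They were followed in heads and guts of Drosophila melanogaster carrying a mutant or a wild type form of VAP, the fly counterpart of human VAPB. Members were chosen by name and level: a symbol that begins with Cpr and a digit or with Twdl, or that is retinin or Crys, and a mean of at least 1 CPM over the male head libraries. CPM is the number of reads assigned to a gene per 1e6 reads assigned to all genes of that library. Of 17830 genes in the male table, 98 carried such a name and 27 reached the minimum. These 27 were 23 of 70 Cpr genes, 2 of 26 Twdl genes, retinin and Crys. The remaining 71 candidates stayed below it, 48 of them below 0.1 CPM and 16 with no read. The last members above the minimum were Cpr92F at 1.33 CPM, Cpr50Cb at 1.28 CPM and Cpr64Ac at 1.10 CPM, and the first genes below it were Cpr11A at 0.904 CPM and Cpr76Bd at 0.851 CPM.

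The insect cuticle is built of chitin fibres held in a matrix of structural proteins, and the largest family of these carries the Rebers-Riddiford chitin-binding domain after which the Cpr genes are named. Tweedle proteins, the products of the Twdl genes, are another family of cuticle proteins and affect body shape in the larva. The lens that covers each unit of the fly eye is a specialised piece of cuticle, secreted by the cone and pigment cells of the retina. Its main proteins are the products of Crys (drosocrystallin), retinin, Cpr66D and Cpr72Ec, and retinin is also part of the coating of the corneal surface. VAP, encoded by Vap33, sits in the endoplasmic reticulum membrane at contacts with other organelles, and the P58S change corresponds to a change in human VAPB that causes familial motor neuron disease. The product of kayak (kay), the fly Fos protein, is a subunit of the AP-1 transcription factor.

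The 88 libraries fell into 22 groups of 4. Male heads labelled VAPP58S (P58S here) and VAPWT (WT here) were collected on days 5, 15 and 20. A second set of male heads, collected on days 5 and 15, held 4 groups that all carried VAPP58S together with RepoGal4, a driver active in glia. In this set kayak was knocked down (KayKD) or overexpressed in its wild type form (KayWT), and another arm carried the construct labelled KaySCR. The labels do not describe KaySCR further. Flies with the driver alone (Driver) served as the control of all 3 arms. Female heads and female guts were P58S and WT on days 5 and 20. The labels do not say whether replicates came from separate crosses or collections, so the p-values here speak only of the spread among these libraries. That spread may be technical. The 3 arms were compared with the same Driver libraries, and comparisons between the 2 male sets were not made.

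Depth, counted in M (1e6) gene reads per library, was 2.48 to 16.5 M in P58S and WT male heads, 1.21 to 15.0 M in the kay set, 0.201 to 6.82 M in female heads and 0.937 to 9.46 M in female guts. A count of 0 allows up to 3 reads. In the deepest and shallowest library this is 0.182 and 1.21 CPM for P58S and WT male heads, and 0.200 and 2.49 CPM for the kay set. For female heads it is 0.440 and 15.0 CPM, and for guts 0.317 and 3.20 CPM. These limits cover counting error only. Among the female heads, WT day 5 replicates 2 and 4 were the shallowest, with 0.201 M and 0.386 M reads. The libraries came from the 3′ ends of transcripts, so a read count was not divided by transcript length, and levels of different genes compare numbers of transcripts rather than of bases. Photoreceptor markers, summed over 14 genes, reached 17398 to 42185 CPM in every head library and 73.3 to 708 CPM in guts. Vap33 was not called in any comparison of the male heads, and 3′ reads do not show the P58S change itself. Transcripts of kay averaged 252 CPM on day 15 and 197 CPM on day 5 in KayKD heads, against 283 and 207 CPM in Driver heads (log2 fold changes −0.05 and −0.06, adjusted p = 0.92 and 0.83 by edgeR). In KayWT heads, labelled as overexpressing kay, its log2 fold changes against Driver heads were 0.02 on day 15 and 0.14 on day 5 (adjusted p = 0.98 and 0.56). In KaySCR heads they were 0.11 on day 15 (adjusted p = 0.94) and 0.49 on day 5, which was called (adjusted p = 0.014). Neither the knockdown nor the KayWT overexpression was thus seen in RNA of whole heads, which hold many cells besides glia, and the arms are named by their labels. P58S day 5 replicate 3 of the male heads stood apart from its group. The chi-square per gene was 71.8 to 133.6 in its pairs, against 8.53 to 16.9 among the other 3 libraries, its glia markers summed to 8814 CPM against 4580 to 5326 CPM in these, and its fat body markers to 7744 CPM against 4231 to 4579 CPM. Values without it are given beside the results of P58S day 5. In RNA of whole heads, fewer cells of a type and less RNA per cell cannot be told apart.

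Retinin dominated the group in male heads. Over all male libraries it averaged 1352 CPM, or 57.2% of the 2364 CPM that the 27 members held together. Cpr65Au followed at 381 CPM, Cpr72Ec at 177.7 CPM, and these with Cpr49Ae and Cpr67B made up the 5 members that held 91.3% of the sum. In all 11 members stood at 10 CPM or more, and 16 between 1 and 10 CPM. Crys came next after these in the order. Cpr66D, the fourth lens gene, was near the bottom of the order, with 0 to 3.95 CPM in male head libraries.

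The members lie on 5 chromosome arms, 12 on 3L, 8 on 2R, 5 on 3R and 1 each on 2L and X, by the Ensembl annotation of the BDGP6 assembly. Retinin (FBgn0040074, 3L:16331933-16332789, plus strand) and Cpr72Ec (FBgn0036619, 3L:16365894-16367340, minus strand) were neighbours among the members, 33.1 kb apart. Crys (FBgn0005664) lies on 2L:11944129-11947131 and Cpr66D (FBgn0052029) on 3L:8640439-8643584, both on the plus strand. Cpr65Au (FBgn0042119, 3L:6131242-6132109, minus strand) is overlapped on the other strand by asRNA:CR46005, and Cpr49Ae (FBgn0033728) occupies 2R:12402216-12405108, plus strand. Closer neighbours were Cpr47Ee and Cpr47Ef, 58 bases apart, Cpr62Ba and Cpr62Bb, 852 bases apart, Cpr64Ac and Cpr64Ad, 2463 bases apart, Cpr49Ae and Cpr49Ag, 2684 bases apart, Cpr62Bb and Cpr62Bc, 5116 bases apart, and Cpr47Ea and Cpr47Ee, 11727 bases apart. Their encoded proteins ran from 93 to 612 residues with a median of 235, from 191 for retinin and 106 for Cpr65Au to 429 for Cpr72Ec and 477 for Crys. TwdlT shares its strand with the overlapping RYa-R and Cpr64Ad with CG43367. Another 6 members (Cpr65Au, Cpr11B, Cpr51A, Cpr73D, Cpr47Ea and Cpr64Ac) overlap a gene on the other strand. Since no source used here states the strand setting of the counting, values of these 8 may include reads of the partner.

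**Figure D1:**
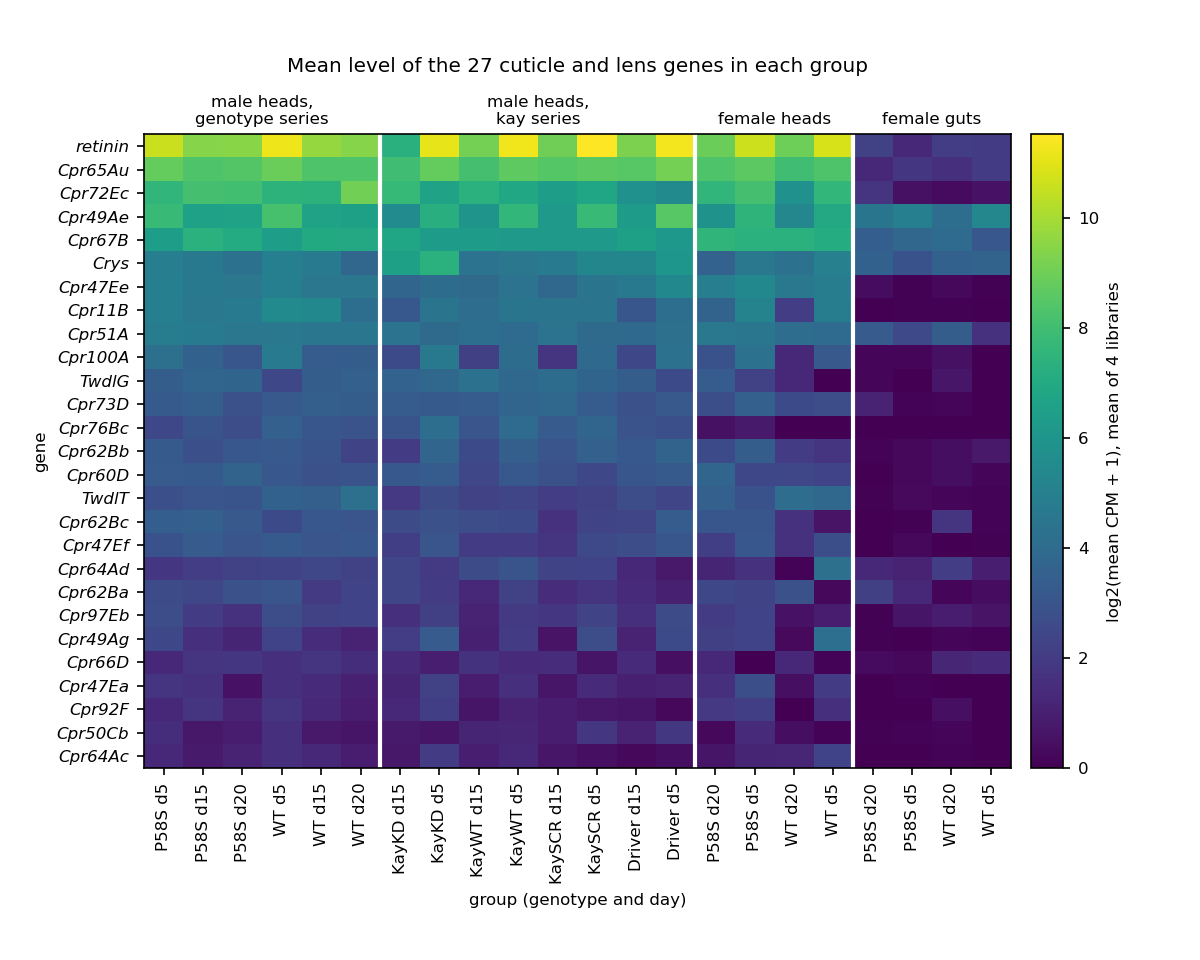
Heat map of log2(mean CPM + 1) for the 27 genes (rows, ordered by mean over male libraries) in the 22 groups of 4 libraries (columns). Retinin has the highest mean in every head group except KayKD day 15, where it averaged 159 CPM against 258 CPM for Cpr65Au and 209 CPM for Cpr72Ec. Its highest group mean is 2953 CPM, and its gut means are 1.46 to 3.74 CPM.

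Members differed in how much they varied across the groups of a male set. Over the 8 groups of the kay set the ratio of the highest to the lowest group mean was 18.6 for retinin, 8.20 for Crys, 8.14 for Cpr49Ae and 4.89 for Cpr72Ec, against 2.16 for Cpr65Au, 1.51 for Cpr67B and 1.42 for Cpr51A. Over the 6 groups of P58S and WT it was 3.51 for retinin, 2.39 for Crys, 3.13 for both Cpr49Ae and Cpr72Ec, 1.52 for Cpr65Au, 1.91 for Cpr67B and 1.26 for Cpr51A. Less abundant members also had high ratios in the kay set: Cpr92F 19.2, Cpr49Ag 16.5, Cpr64Ac 15.9, Cpr100A 10.3 and Cpr64Ad 9.48. All of these but Cpr100A had a lowest group mean under 1 CPM. The median ratio over the 27 members was 4.21 in the kay set and 2.43 in the other. Such a ratio can grow with the number of groups, here 8 and 6. The highest group mean was from day 5 for 19 of the 27 members in the kay set and 16 in the other set. The lowest was from day 5 for 9 and 8 members. Day 5 supplied a larger share of the groups in the kay set, so the counts of the sets are not comparable. For members near 1 CPM, such as Cpr92F and Cpr64Ac, a few reads can set the order of the groups. These counts were not made for all genes, so they allow no reading about the members as a group. Between the 4 libraries of a group, the median coefficient of variation was 20.7% for members at 10 CPM or more and 45.1% for those below.

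Retinin fell with age in both genotypes of the first male set. In P58S heads it stood at 1699, 1406, 1630 and 1462 CPM on day 5, at 630, 679, 765 and 695 CPM on day 15 and at 722, 671, 705 and 746 CPM on day 20. In WT heads it stood at 2131, 2889, 2257 and 2448 CPM on day 5, at 911, 861, 848 and 715 CPM on day 15 and at 817, 838, 569 and 555 CPM on day 20. Every later library was below every day 5 library of its genotype. For day 15 over day 5 the log2 fold change, fitted with edgeR's quasi-likelihood test and adjusted by Benjamini-Hochberg over all genes, was −1.32 ± 0.13 (SE; adjusted p = 2.4e-07) in P58S heads and −1.73 ± 0.13 (adjusted p = 1.3e-09) in WT heads. For day 20 over day 5 it was −1.16 (adjusted p = 8.9e-07) in P58S heads and −1.89 (adjusted p = 1.5e-10) in WT heads. Between days 15 and 20 retinin was called in neither genotype.

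The other lens genes took different courses. Cpr72Ec, a lens protein with the Rebers-Riddiford domain, gave 131, 183, 295 and 156 CPM on day 5, 257, 246, 309 and 295 CPM on day 15 and 271, 276, 230 and 256 CPM on day 20 in P58S heads. In WT heads it held at 170, 184, 172 and 167 CPM on day 5 and at 223, 194, 131 and 134 CPM on day 15. On day 20 the WT libraries stood at 631, 526, 509 and 464 CPM. All WT day 20 libraries were above all other libraries of both genotypes. Its log2 fold change in WT heads was 1.54 ± 0.18 for day 20 over day 5 (adjusted p = 3.0e-06) and 1.74 ± 0.19 for day 20 over day 15 (adjusted p = 4.5e-06). No age step of Cpr72Ec was called in P58S heads.

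Crys gave 29.6, 38.7, 28.3 and 22.7 CPM on day 5, 23.5, 27.0, 23.9 and 22.9 CPM on day 15 and 19.9, 15.0, 16.6 and 22.2 CPM on day 20 in P58S heads. The WT libraries stood at 23.9, 20.8, 36.6 and 41.2 CPM on day 5, at 32.5, 25.0, 21.6 and 27.4 CPM on day 15 and at 17.0, 7.83, 15.8 and 10.6 CPM on day 20. Day 20 was lowest in both, with no overlap with day 5. Its log2 fold change for day 20 over day 5 was −0.74 ± 0.22 in P58S heads (adjusted p = 0.021) and −1.39 ± 0.23 in WT heads (adjusted p = 0.00021). For day 20 over day 15 it was −0.99 in WT heads (adjusted p = 0.0123). The P58S call was lost without P58S day 5 replicate 2 or day 20 replicate 2 or 3 (−0.67 to −0.57, adjusted p 0.062 to 0.094). The day 20 over day 15 call was lost without WT day 15 replicate 1 or day 20 replicate 2 (−0.85 to −0.77, adjusted p 0.051 to 0.066). Cpr66D was called at no age: it lay at 0.158 to 3.26 CPM in P58S and at 0.653 to 3.20 CPM in WT libraries over all 3 days, with 1 to 52 reads per library (median 13).

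**Figure D2:**
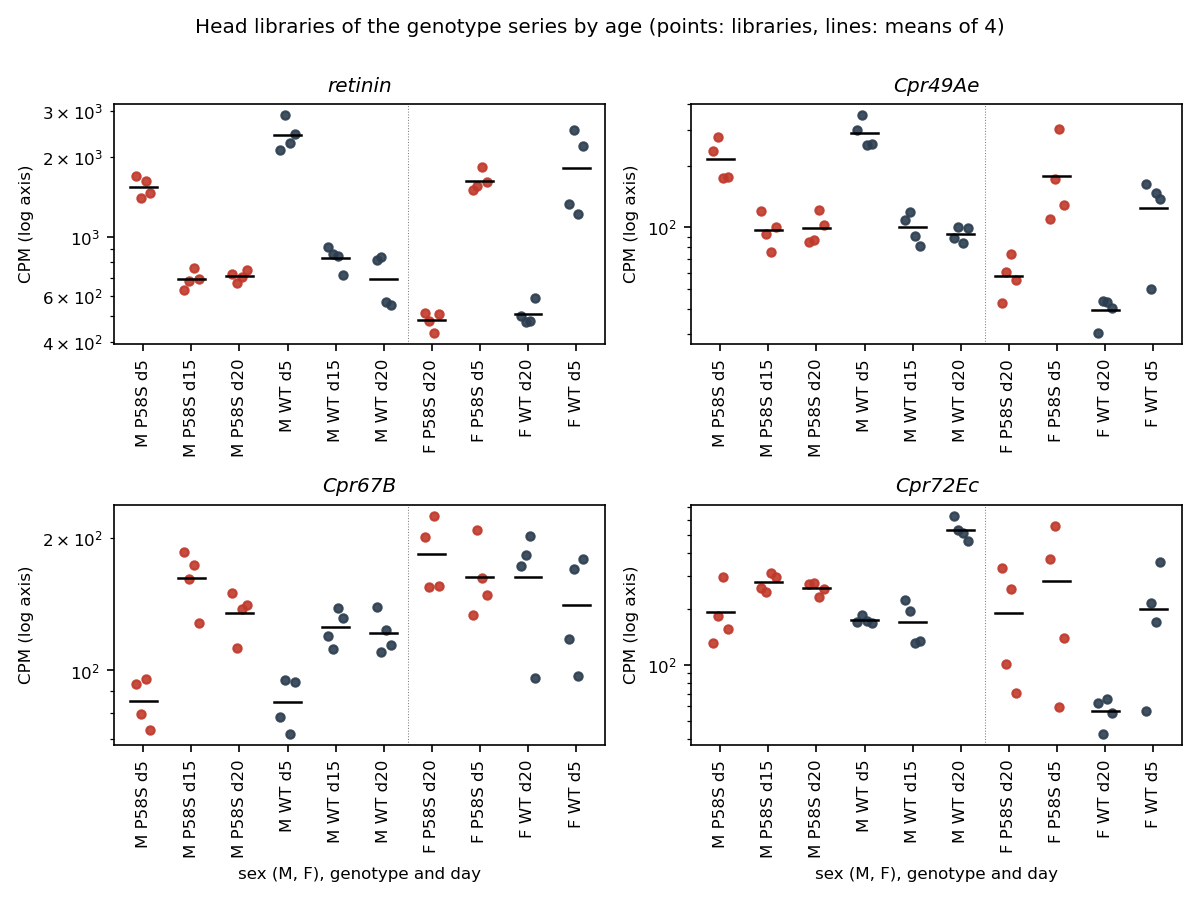
CPM (log axis) of retinin, Cpr49Ae, Cpr67B and Cpr72Ec in each P58S and WT head library by day, males on days 5, 15 and 20 and females on days 5 and 20; each point is 1 library. Day 5 libraries of retinin and Cpr49Ae lie above later ones of their sex and genotype. Cpr67B lies higher on days 15 and 20 in males, and Cpr72Ec is highest in WT males on day 20 (464 to 631 CPM).

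Of the other abundant members, 2 fell and 1 rose with age. Cpr49Ae gave 236, 276, 174 and 176 CPM on day 5, 120, 92.8, 76.1 and 100 CPM on day 15 and 84.7, 87.0, 121 and 103 CPM on day 20 in P58S heads. The WT values were 299, 354, 253 and 255 CPM on day 5, 109, 118, 91.0 and 81.1 CPM on day 15 and 88.4, 99.8, 83.4 and 99.1 CPM on day 20. As for retinin, no later library reached a day 5 library. The log2 fold change of Cpr49Ae for day 15 over day 5 was −1.32 ± 0.17 in P58S heads (adjusted p = 1.7e-05) and −1.72 ± 0.17 in WT heads (adjusted p = 4.3e-07), and for day 20 over day 5 it was −1.15 (adjusted p = 5.1e-05) in P58S heads and −1.73 (adjusted p = 2.2e-07) in WT heads.

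Cpr65Au moved the same way by less. It gave 418, 447, 431 and 461 CPM on day 5, 348, 301, 362 and 303 CPM on day 15 and 347, 320, 371 and 350 CPM on day 20 in P58S heads. In WT heads it gave 531, 470, 487 and 486 CPM, 345, 311, 359 and 311 CPM, and 318, 305, 346 and 327 CPM on the same days. All later libraries lay below all day 5 libraries of their genotype. Its log2 fold changes for day 15 over day 5 were −0.58 ± 0.08 in P58S heads (adjusted p = 2.8e-05) and −0.76 ± 0.08 in WT heads (adjusted p = 5.1e-07). Cpr67B instead rose: P58S libraries stood at 93.1, 79.6, 95.4 and 73.4 CPM on day 5, at 186, 161, 174 and 128 CPM on day 15 and at 150, 113, 138 and 141 CPM on day 20. Its WT libraries stood at 78.3, 95.2, 71.7 and 94.2 CPM, at 120, 112, 139 and 132 CPM, and at 139, 110, 124 and 114 CPM on these days. Groups of day 5 did not overlap with later ones in either genotype. The rise for day 15 over day 5 was 0.76 ± 0.12 on the log2 scale in P58S heads (adjusted p = 0.00017). In WT heads it was 0.37 (adjusted p = 0.0456) for day 15 over day 5 and 0.43 (adjusted p = 0.022) for day 20 over day 5. The first was lost without WT day 5 replicate 1 or 3 or any 1 of the 4 WT day 15 libraries (0.29 to 0.41, adjusted p 0.053 to 0.16), and also without a filter on low counts (adjusted p = 0.059). The second was lost without WT day 5 replicate 1 or 3 or day 20 replicate 1 (0.35 to 0.39, adjusted p 0.07 to 0.1).

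Over all members, 5 of 27 (18.5%) were called for day 15 over day 5 in P58S heads, 1 higher and 4 lower, where 13.6% of the 9741 genes tested were called, 5.99% higher and 7.57% lower. For day 20 over day 5 in P58S heads 9 (33.3%) were called, 1 higher and 8 lower, against 16.0% of all genes, 7.19% higher and 8.81% lower. In WT heads 8 (29.6%) were called for day 15, 2 higher and 6 lower, against 12.4% of all genes, 5.08% higher and 7.30% lower. For day 20 the WT count was 11 (40.7%), 3 higher and 8 lower, against 10.6%, 5.07% higher and 5.51% lower. The first of these shares is near that of all genes. The median log2 fold change of the members was −0.31 and −0.33 in P58S heads and −0.44 and −0.69 in WT heads for days 15 and 20 over day 5, beside medians of all genes between −0.004 and 0.01. Summed over the 27 members, P58S heads held 2707 ± 138, 1760 ± 98.0 and 1733 ± 54.9 CPM on days 5, 15 and 20, and WT heads 3725 ± 361, 1767 ± 147 and 1939 ± 211 CPM (SD, n = 4 each). Retinin made up 57.2%, 39.3% and 41.0% of the sum in P58S heads and 65.1%, 47.1% and 35.5% in WT heads on these days. Without P58S day 5 replicate 3 the P58S counts were 6 for day 15 and 9 for day 20 over day 5. For day 15 and day 20 over day 5 retinin was then at −1.31 and −1.14, Cpr49Ae at −1.42 and −1.25, Cpr65Au at −0.60 and −0.39, Cpr67B at 0.80 and 0.67 and Cpr100A at −0.96 and −1.38, all still called. Without retinin the other 26 members held 1157, 1068 and 1022 CPM in P58S heads and 1294, 934 and 1244 CPM in WT heads.

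Among lower members, Cpr100A fell in both genotypes: 20.2, 20.2, 15.7 and 15.6 CPM on day 5, 9.21, 9.97, 11.7 and 12.6 CPM on day 15 and 7.60, 7.03, 6.47 and 8.74 CPM on day 20 in P58S heads. WT libraries gave 19.8, 32.9, 24.6 and 31.5 CPM, 6.06, 8.44, 14.5 and 8.48 CPM, and 6.86, 9.01, 11.3 and 10.9 CPM on the same days. The fitted log2 fold changes of Cpr100A were −0.88 (adjusted p = 0.0061) and −1.30 (adjusted p = 0.00023) in P58S heads and −1.72 (adjusted p = 8.4e-06) and −1.61 (adjusted p = 2.0e-05) in WT heads for days 15 and 20 over day 5. TwdlG, a Tweedle gene, rose in WT heads, where it stood at 4.10, 5.64, 5.81 and 3.16 CPM on day 5, at 12.0, 9.42, 8.40 and 8.07 CPM on day 15 and at 11.9, 13.1, 9.68 and 7.65 CPM on day 20. The later WT libraries did not overlap with those of day 5. Its log2 fold change was 0.83 ± 0.24 for day 15 (adjusted p = 0.0242), lost without WT day 5 replicate 1 or 4 or day 15 replicate 1 (0.65 to 0.79, adjusted p 0.051 to 0.11), and 1.09 ± 0.24 for day 20 (adjusted p = 0.0037). Cpr11B fell late in WT heads, with 47.0, 46.1, 44.1 and 43.0 CPM on day 5, 38.0, 29.6, 54.3 and 41.2 CPM on day 15 and 21.3, 14.9, 16.7 and 14.9 CPM on day 20. WT day 20 lay below both earlier WT groups. Its log2 fold changes were −1.51 ± 0.18 over day 5 (adjusted p = 3.0e-06) and −1.19 ± 0.18 over day 15 (adjusted p = 0.00032). TwdlT, the other Tweedle member, went the opposite way in WT heads, to 18.8, 21.4, 16.4 and 15.3 CPM on day 20 against 5.28, 13.3, 10.1 and 11.7 CPM on day 15, with a log2 fold change of 0.98 ± 0.22 for day 20 over day 15 (adjusted p = 0.0077).

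The remaining age calls of the first set depended on single libraries, and all but that of Cpr47Ee concerned members under 10 CPM on average over the male libraries. Cpr62Bb fell to 6.13, 1.96, 4.47 and 4.01 CPM in WT heads on day 20, against 8.57, 7.16, 7.24 and 9.83 CPM on day 5 (log2 fold change −1.14, adjusted p = 0.015), and was lost without WT day 5 replicate 4 or day 20 replicate 2 (−1.02 to −0.84, adjusted p 0.05 to 0.088). Cpr49Ag was lower on day 20 than on day 5 in P58S heads (−1.82, adjusted p = 0.0095; −1.47 to −1.39, adjusted p 0.05 to 0.054, without P58S day 5 replicate 3 or day 20 replicate 4) and in WT heads (−1.86, adjusted p = 0.0168; −1.71 to −1.65, adjusted p 0.055 to 0.074, without WT day 5 replicate 2 or day 20 replicate 2 or 3). Cpr97Eb (−1.36, adjusted p = 0.0256; −1.32 to −1.12, adjusted p 0.056 to 0.1, without P58S day 20 replicate 1, 2 or 3) and Cpr47Ea (−1.84, adjusted p = 0.024; −1.87 to −1.61, adjusted p 0.058 to 0.064, without P58S day 5 replicate 2 or day 20 replicate 1, 2 or 4) were lower on day 20 than on day 5 in P58S heads. For day 15 over day 5 in WT heads, Cpr47Ee gave −0.56 (adjusted p = 0.0413) and Cpr62Ba −1.46 (adjusted p = 0.0326). The call of Cpr47Ee was lost without WT day 5 replicate 1, 2 or 3 or day 15 replicate 2, 3 or 4 (−0.60 to −0.43, adjusted p 0.053 to 0.15), and that of Cpr62Ba without WT day 5 replicate 2 or 4 or day 15 replicate 2, 3 or 4 (−1.44 to −1.13, adjusted p 0.061 to 0.15). The WT day 15 count of called members fell to 5 without WT day 5 replicate 1 or day 15 replicate 2, 3 or 4.

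Between days 15 and 20, 4 members were called in WT heads, 2 higher (Cpr72Ec and TwdlT) and 2 lower (Crys and Cpr11B), where 6.16% of all genes were called, 3.57% higher and 2.59% lower. In P58S heads edgeR called 0 of 27 at this step, where 6.75% of all genes were called. Of the members, 3 had an unadjusted p under 0.05, DESeq2 also called 0, and 1 was called without P58S day 20 replicate 3. This step was compared after the values had been seen.

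The fall from day 5 to day 15 could be followed in 6 male genotypes, of which P58S and WT form the first set and KayKD, KayWT, KaySCR and Driver the second. Retinin, Cpr49Ae and Cpr100A were called lower on day 15 in all 6, with no day 15 library reaching a day 5 library of its genotype. Their log2 fold changes spanned −3.78 to −1.32 for retinin, −2.26 to −1.32 for Cpr49Ae and −2.63 to −0.88 for Cpr100A. Cpr65Au was called lower in 5 of 6 (−0.79 to −0.17), the exception being KaySCR. Over the 27 members 11 had a negative sign in all 6 genotypes, 11 were called lower in at least 1, 3 were called higher in at least 1 (Cpr67B in P58S and WT, TwdlG in WT, Cpr72Ec in KayKD) and 13 were called in none. Cpr66D alone had a positive sign in all 6, between 0.04 and 1.65, and was called in none. These counts over the 6 genotypes were not made for all genes, so they allow no reading about the members as a group.

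**Figure D3:**
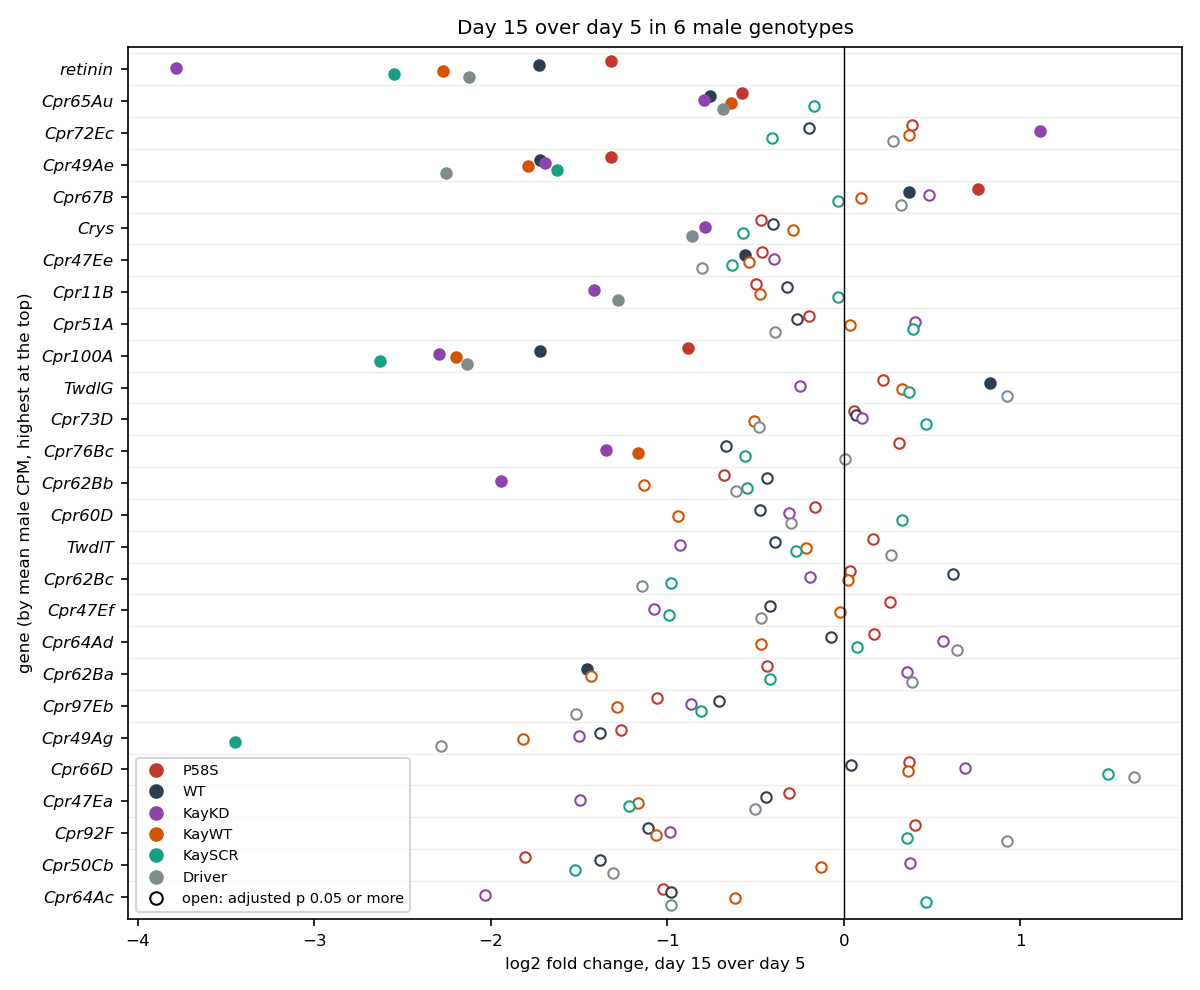
Log2 fold change of day 15 over day 5 for the members in 6 male genotypes; filled points have an adjusted p under 0.05 and open points do not. Retinin, Cpr49Ae and Cpr100A are filled and below 0 in all 6 genotypes, and the retinin point of KayKD is the lowest of its row at −3.78.

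In the second set the levels of retinin behind these values were 222, 170, 180 and 63.7 CPM on day 15 against 2324, 2201, 2236 and 1911 CPM on day 5 in KayKD heads, and 598, 530, 548 and 516 CPM against 2548, 2674, 2239 and 2550 CPM in KayWT heads. In KaySCR heads they were 509, 423, 621 and 510 CPM on day 15 against 3106, 2650, 3080 and 2976 CPM on day 5, and in Driver heads 602, 670, 596 and 601 CPM against 3388, 2209, 2001 and 2613 CPM. The log2 fold changes were −3.78 ± 0.21 (adjusted p = 5.4e-15) in KayKD, −2.27 ± 0.19 (adjusted p = 4.2e-10) in KayWT, −2.55 ± 0.19 (adjusted p = 2.8e-11) in KaySCR and −2.13 ± 0.19 (adjusted p = 1.3e-09) in Driver heads. Cpr100A stood at 4.85, 3.99, 7.69 and 3.43 CPM on day 15 against 33.9, 24.7, 11.5 and 27.4 CPM on day 5 in KayKD heads, and the other 3 genotypes had day 15 values of 0.806 to 7.42 CPM against day 5 values of 5.71 to 28.7 CPM.

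Counts of called members for day 15 over day 5 were 9 in KayKD heads (1 higher, 8 lower), 5 in KayWT (all lower), 4 in KaySCR (all lower) and 6 in Driver (all lower). Among the 9796 genes tested, 5.74% were called in KayKD (2.88% higher, 2.86% lower), 1.59% in KayWT (0.612% higher, 0.980% lower), 1.67% in KaySCR (0.521% higher, 1.15% lower) and 6.07% in Driver heads (2.75% higher, 3.33% lower). The members' medians were −0.79, −0.54, −0.42 and −0.50 on the log2 scale in KayKD, KayWT, KaySCR and Driver heads. Crys fell in KayKD (−0.79, adjusted p = 0.0096) and Driver heads (−0.86, adjusted p = 0.0050), and Cpr65Au in KayKD (−0.79, adjusted p = 0.00067), KayWT (−0.64, adjusted p = 0.0122) and Driver heads (−0.68, adjusted p = 0.0025). The KayWT call of Cpr65Au was lost without KayWT day 15 replicate 3 or 4 (−0.61 to −0.59, adjusted p 0.053 to 0.055). Cpr62Bb fell in KayKD heads to 3.47, 4.99, 2.00 and 1.67 CPM, against 9.68, 4.48, 9.51 and 27.4 CPM on day 5 (−1.94, adjusted p = 0.0051).

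The other age calls of the second set each depended on single libraries. Cpr11B was lower on day 15 in KayKD (−1.42, adjusted p = 0.0238) and Driver heads (−1.28, adjusted p = 0.035), lost in KayKD without day 5 replicate 1 or 3 or day 15 replicate 2, 3 or 4 (−1.36 to −1.18, adjusted p 0.061 to 0.11) and in Driver without the same 5 replicates (−1.30 to −0.79, adjusted p 0.077 to 0.23). Cpr76Bc was lower in KayKD heads (−1.35, adjusted p = 0.0115; −1.30, adjusted p = 0.051, without day 15 replicate 4) and in KayWT heads (−1.17, adjusted p = 0.0424; −1.26 to −0.99, adjusted p 0.05 to 0.18, without any library but day 15 replicate 2; adjusted p = 0.052 without a filter on low counts). Cpr72Ec was higher on day 15 in KayKD heads (1.11, adjusted p = 0.022; 0.86 to 1.10, adjusted p 0.057 to 0.12, without day 5 replicate 4 or day 15 replicate 3 or 4). Cpr49Ag was lower in KaySCR heads (−3.45, adjusted p = 0.0221; −3.75 to −3.02, adjusted p 0.054 to 0.086, without day 5 replicate 4 or day 15 replicate 1, 3 or 4). Without KayWT day 15 replicate 3 or 4 the KayWT count was 3.

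A list of 11 cone and pigment cell markers summed to 4381 to 4647 CPM on day 15 in P58S heads, against 4442 to 5681 CPM on day 5, and to 4349 to 4945 CPM on day 15 in WT heads, against 4209 to 4491 CPM on day 5. On day 20 the sums were 3418 to 3651 CPM in P58S heads and 3665 to 3917 CPM in WT heads. These day 20 sums lay below all day 5 sums of their genotype. In P58S heads 1 of the 11 was called higher and 2 lower for day 15 over day 5; in WT, KayWT, KaySCR and Driver heads 0 were called, and in KayKD heads 1 lower. None of the 11 was at 0 throughout a male group. In the mean male library pros alone made up 84.3% of this sum, and pros with ct 93.8%. Both are also active in neurons of the brain, so most of this sum comes from genes not limited to the cells that secrete the lens. The other 9 markers summed to 234 to 248 CPM on day 15 in P58S heads, against 203 to 246 CPM on day 5, and to 255 to 291 CPM on day 15 in WT heads, against 216 to 263 CPM on day 5. On day 20 these 9 summed to 230 to 253 CPM in P58S heads and 234 to 267 CPM in WT heads. The highest of them were santa-maria at 158 CPM and wrapper at 37.2 CPM over the male libraries. Their sum thus rests largely on santa-maria, and whether it follows the cells that secrete the lens was not tested. Photoreceptor markers summed to 29168 to 36807 CPM on day 15 in WT heads, against 22357 to 25148 CPM on day 5. In P58S heads they overlapped, at 29815 to 34892 CPM against 27246 to 36072 CPM. Each genotype of the second set had higher sums on day 15 without overlap, in Driver heads 21937 to 24694 CPM against 19100 to 21491 CPM. The 7 tested tracheal and epidermal markers, summed, lay between 433 and 727 CPM in every male library. Most of this sum came from vvl and grh, which averaged 267 and 166 CPM over the male libraries. Gasp and serp of the same list, at 41.0 and 17.8 CPM on average, fell in WT heads on day 15, as given below. Muscle markers summed to 1120 to 1203 CPM in Driver heads on day 15, against 2006 to 2258 CPM on day 5. The part of such differences in the age values was not tested.

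In female heads retinin also fell. It stood at 516, 482, 432 and 511 CPM on day 20 against 1500, 1553, 1833 and 1608 CPM on day 5 in P58S heads, and at 502, 478, 482 and 587 CPM on day 20 against 1333, 2527, 1225 and 2208 CPM on day 5 in WT heads. No day 20 library reached a day 5 library. On the log2(CPM + 1) scale, tested with limma over all genes, the difference of day 20 over day 5 was −1.74 ± 0.19 in P58S heads (adjusted p = 3.4e-05) and −1.77 ± 0.19 in WT heads (adjusted p = 2.6e-05). Cpr49Ae stood at 42.7, 60.7, 73.7 and 55.2 CPM on day 20 against 110, 171, 301 and 129 CPM on day 5 in P58S heads, and at 30.3, 43.8, 43.4 and 40.2 CPM against 163, 49.8, 147 and 137 CPM in WT heads. These groups did not overlap either. Its difference was −1.51 ± 0.42 in both, with adjusted p = 0.25 in P58S and 0.089 in WT heads. Without WT day 5 replicate 2, the shallowest library, the WT value was −1.91 (adjusted p = 0.0020). Retinin was the only member called in either genotype, 1 of 25 tested each, where 0.270% of 9640 genes were called in P58S heads (0.145% lower) and 0.975% in WT heads (0.384% lower). The median over all genes was −0.05 in P58S and 0.35 in WT heads at this step, and that over the members −0.35 and −0.16. Without WT day 5 replicate 2 the WT count was 4. Ovary markers summed to 0.947 to 56.0 CPM in WT heads on day 20, against 174 to 517 CPM on day 5, and muscle markers to 1110 to 1458 CPM against 2149 to 2935 CPM. In P58S heads muscle markers summed to 1486 to 1768 CPM on day 20, against 2188 to 2685 CPM on day 5. Neuron markers there summed to 2087 to 2228 CPM against 2712 to 3294 CPM. Cone and pigment cell markers summed to 2009 to 2194 CPM against 3075 to 3685 CPM in P58S heads. In WT heads these overlapped, at 2366 to 3345 CPM against 2783 to 3279 CPM. The part of such shifts in the age values was not tested.

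The first question of the design, P58S against WT, gave few differences among the members. In male heads 3 of 27 were called on day 5 (11.1%), 1 higher and 2 lower, where 1.96% of 9741 genes were called, 0.842% higher and 1.12% lower. On day 15 1 was called (lower; 1.02% of all genes, 0.482% higher and 0.534% lower), and on day 20 2 (both lower; 1.76% of all genes, 0.893% lower). Counts of 1 or 2 genes allow no reading about the members as a group. The median log2 fold change of the members was −0.05, 0.07 and 0.14 on days 5, 15 and 20.

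Retinin was lower in P58S than in WT heads on day 5. All P58S libraries (1406 to 1699 CPM) lay below all WT libraries (2131 to 2889 CPM), and the log2 fold change was −0.67 ± 0.13 (adjusted p = 0.0032), a fold of 1.59. On day 15 P58S libraries stood at 630 to 765 CPM against 715 to 911 CPM in WT libraries, which overlapped (−0.26, adjusted p = 0.58), and on day 20 at 671 to 746 CPM against 555 to 838 CPM. The change of the P58S difference from day 5 to day 20 was 0.74 ± 0.18 (adjusted p = 0.087) and did not pass the threshold. It did with DESeq2 (adjusted p = 0.014), without a filter on low counts (adjusted p = 0.048) and without WT day 5 replicate 1 (0.81, adjusted p = 0.047). Beside it, photoreceptor markers summed to 27246 to 36072 CPM in P58S heads on day 5 and to 22357 to 25148 CPM in WT heads, with 3 of 14 called higher and 1 lower. Cone and pigment cell markers summed to 4442 to 5681 CPM in P58S heads and to 4209 to 4491 CPM in WT heads, with 0 of 11 called by edgeR at any of the 3 ages. Without pros and ct the sums, which rest largely on santa-maria, were 203 to 246 CPM in P58S heads and 216 to 263 CPM in WT heads. The part of the eye's makeup in the retinin difference was not tested.

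The Tweedle genes differed in opposite directions. TwdlG was higher in P58S heads on day 5, with 11.2, 9.35, 8.70 and 8.94 CPM, against 4.10, 5.64, 5.81 and 3.16 CPM in WT heads, a log2 fold change of 1.01 ± 0.23 (adjusted p = 0.0205). The groups did not overlap, but without WT day 5 replicate 4 the value was 0.83 with an adjusted p of 0.11. On day 15 it had a value of 0.40 (adjusted p = 0.72). TwdlT was lower in P58S heads on day 5, at 4.88, 5.34, 7.91 and 5.75 CPM, against 9.69, 11.1, 11.2 and 12.6 CPM in WT heads (−0.95 ± 0.22, adjusted p = 0.0193; −0.90 to −0.88, adjusted p 0.056 to 0.078, without WT day 5 replicate 4 or P58S day 5 replicate 2). On day 15 its value was −0.40 (adjusted p = 0.71), with P58S libraries at 6.42, 9.08, 7.65 and 5.94 CPM and WT libraries at 5.28, 13.3, 10.1 and 11.7 CPM. On day 20 P58S heads held 7.24, 7.03, 6.06 and 7.97 CPM of TwdlT, against 18.8, 21.4, 16.4 and 15.3 CPM in WT heads, a log2 fold change of −1.31 ± 0.22 (adjusted p = 0.00079) that passed with each library left out in turn. TwdlT overlaps RYa-R on the same strand, so its reads could include that gene. Without WT day 5 replicate 4 the day 5 count of called members was 1. Without P58S day 5 replicate 3 it was 4: retinin at −0.68 (adjusted p = 0.0059), TwdlG at 1.06 (adjusted p = 0.022), TwdlT at −1.10 (adjusted p = 0.0097) and Cpr11B. In that fit the change of the P58S difference from day 5 to day 20 was 0.75 for retinin (adjusted p = 0.076), −0.87 for Cpr72Ec (adjusted p = 0.083) and 1.37 for Cpr11B (adjusted p = 0.0032).

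**Figure D4:**
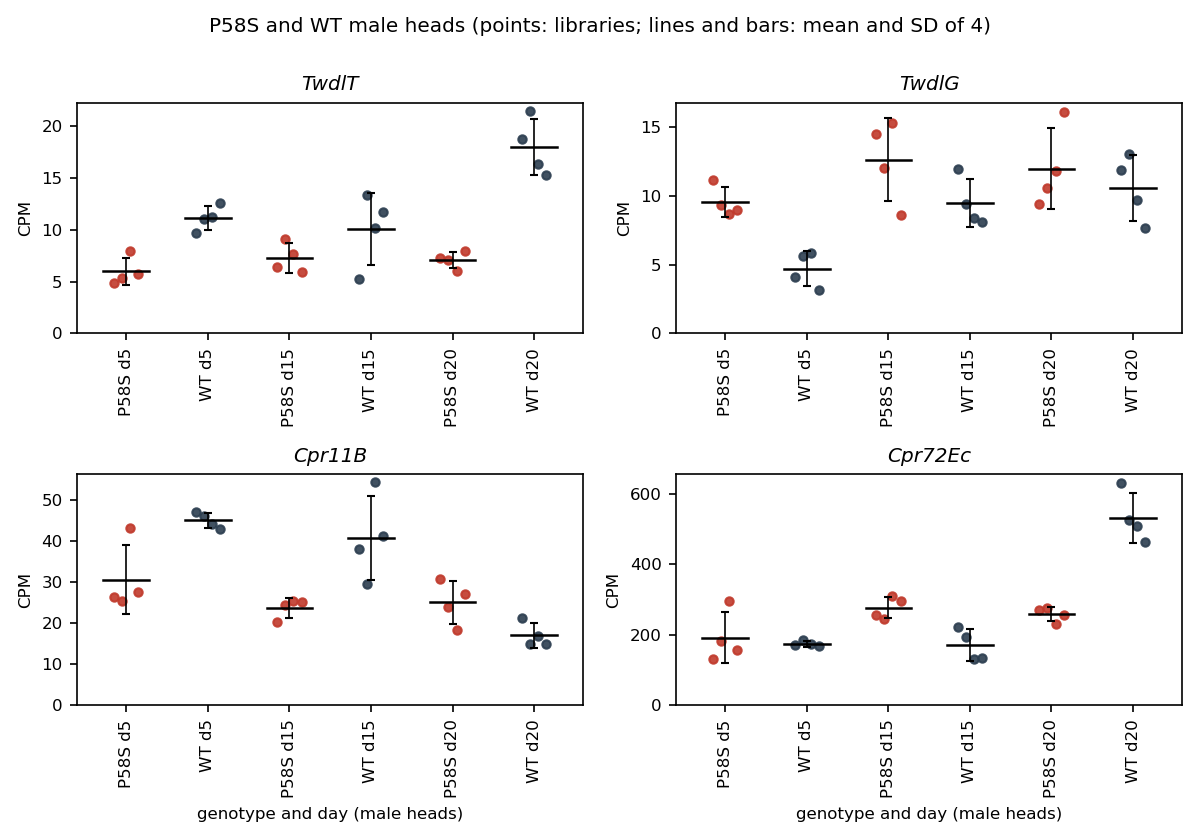
CPM (linear axis) of TwdlT, TwdlG, Cpr11B and Cpr72Ec in P58S and WT male heads on days 5, 15 and 20; points are libraries, and bars give the mean with its SD (n = 4). TwdlT and Cpr72Ec lie lower in P58S than in WT heads on day 20, at 6.06 to 7.97 CPM against 15.3 to 21.4 CPM and at 230 to 276 CPM against 464 to 631 CPM.

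Cpr72Ec was lower in P58S heads on day 20, where its libraries at 271, 276, 230 and 256 CPM lay below WT libraries at 631, 526, 509 and 464 CPM (−1.01 ± 0.18, adjusted p = 0.00155). On day 15 the order was the reverse, with P58S libraries at 257, 246, 309 and 295 CPM above WT libraries at 223, 194, 131 and 134 CPM. That difference, 0.71 ± 0.18, missed the threshold (adjusted p = 0.059) and passed it with DESeq2 (adjusted p = 0.0064), without a filter on low counts (adjusted p = 0.016) and without WT day 15 replicate 1 (0.88, adjusted p = 0.016). The change of the P58S difference from day 5 to day 20 was −1.13 ± 0.26 for Cpr72Ec (adjusted p = 0.057), and it passed with DESeq2 (adjusted p = 0.0031), without the filter (adjusted p = 0.017) and without P58S day 5 replicate 1 (−1.27, adjusted p = 0.021) or 4 (−1.21, adjusted p = 0.049).

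Cpr11B was lower in P58S heads on day 15, at 20.1, 24.3, 25.3 and 25.2 CPM against 38.0, 29.6, 54.3 and 41.2 CPM in WT heads (−0.76 ± 0.17, adjusted p = 0.0203). These groups did not overlap, but the call was lost without WT day 15 replicate 3 or P58S day 15 replicate 1, 2 or 3 (−0.78 to −0.60, adjusted p 0.056 to 0.17). That left 0 called members on day 15, and without WT day 15 replicate 1 there were 2. On day 5 P58S libraries at 26.2, 25.3, 43.2 and 27.5 CPM stood against WT libraries at 47.0, 46.1, 44.1 and 43.0 CPM (−0.58, adjusted p = 0.070; −0.78, adjusted p = 0.0080, without P58S day 5 replicate 3). On day 20 P58S libraries at 30.8, 24.0, 18.3 and 27.1 CPM stood against WT libraries at 21.3, 14.9, 16.7 and 14.9 CPM (0.60, adjusted p = 0.11; 0.74, adjusted p = 0.041, without P58S day 20 replicate 3). The change of this difference from day 5 to day 20 was the only one called among the members, at 1.18 ± 0.25 (adjusted p = 0.0424), where 0.205% of all genes were called (0.154% higher). It was lost without any library of these 4 groups except WT day 5 replicate 1, WT day 20 replicate 1, P58S day 5 replicate 3 and P58S day 20 replicate 3 (1.09 to 1.20, adjusted p 0.063 to 0.13). Without WT day 5 replicate 1 the count was 2. For the change from day 5 to day 15, edgeR and DESeq2 each called 0 of 27 (5 at an unadjusted p under 0.05), where 0.103% of all genes were called.

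Female heads gave no call between P58S and WT. With limma 0 of 25 tested members passed on either day, 2 had an unadjusted p under 0.05 on each day, and edgeR on reads recovered from the table also called 0. Of all genes, 0.0519% and 0.0311% were called on days 5 and 20. Cpr76Bc and Cpr50Cb were too low to be tested. TwdlG gave 4.25, 3.01, 3.80 and 4.51 CPM in P58S heads on day 5 and was at 0 in all 4 WT libraries, 2 of which could have held up to 15.0 and 7.77 CPM unseen (adjusted p = 0.22). On day 20 it gave 10.1, 10.8, 6.10 and 9.99 CPM in P58S heads, against 0, 0.368, 5.35 and 0 CPM in WT heads (adjusted p = 0.39). Cpr72Ec on day 20 stood at 329, 101, 256 and 70.9 CPM in P58S heads, against 62.5, 42.4, 65.3 and 54.9 CPM in WT heads, a difference of 1.48 ± 0.61 (adjusted p = 0.93) within a wide spread. The members' median was 0.69 on day 5 and 1.00 on day 20, beside 0.65 and 0.16 for all genes. Depth differed between the genotypes: on day 5 P58S libraries held 3.10 to 3.69 M reads and WT libraries 0.201 to 3.65 M. On day 20 P58S libraries held 3.15 to 6.82 M reads and WT libraries 1.06 to 2.71 M. The part of depth in these medians was not tested.

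In the second male set, members in the 3 arms were compared with the same Driver libraries. On day 5, 6 members were called in KayKD heads (22.2%; 4 higher, 2 lower), 7 in KayWT (25.9%; 4 higher, 3 lower) and 5 in KaySCR (18.5%; 2 higher, 3 lower). Among all genes 3.58% were called in KayKD (1.77% higher, 1.82% lower), 5.59% in KayWT (3.01% higher, 2.58% lower) and 2.60% in KaySCR heads (1.34% higher, 1.27% lower). On day 15, 4 were called in KayKD (2 higher, 2 lower; 1.25% of all genes, 0.633% higher, 0.612% lower), 2 in KayWT (1 higher, 1 lower; 1.48%, 0.909% higher, 0.572% lower) and 1 in KaySCR heads (higher; 0.868%, 0.592% higher, 0.276% lower). The members' medians were 0.26, 0.03 and 0.04 on day 5 and 0.18, −0.11 and −0.10 on day 15 in KayKD, KayWT and KaySCR heads.

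Retinin was lower in KayKD than in Driver heads on day 15, at 222, 170, 180 and 63.7 CPM against 602, 670, 596 and 601 CPM. The log2 fold change was −1.88 ± 0.19 (adjusted p = 6.0e-08), a fold of 3.68. On day 5 the same arm stood at 1911 to 2324 CPM against 2001 to 3388 CPM in Driver heads (−0.22, adjusted p = 0.55). The difference between these effects, −1.66 ± 0.26, was itself called (adjusted p = 0.00074), the only such member, where 0.153% of all genes were called (0.0817% lower). In KaySCR heads on day 15 retinin gave −0.22 (adjusted p = 0.90), and KayWT libraries at 516 to 598 CPM were not called against the 596 to 670 CPM of Driver libraries. Photoreceptor markers summed to 25235 to 42185 CPM in KayKD heads on day 15, against 21937 to 24694 CPM in Driver heads, with 3 of 14 called higher. Glia markers summed to 5124 to 6308 CPM in KayKD heads on that day, against 4377 to 5072 CPM in Driver heads, without overlap. Cone and pigment cell markers summed to 4122 to 4658 CPM in KayKD heads, against 4624 to 4975 CPM in Driver heads, with 1 of 11 called higher, ninaG (1.21, adjusted p = 0.044). Without pros and ct the sums, which rest largely on santa-maria, were 291 to 336 CPM in KayKD heads and 307 to 340 CPM in Driver heads. The part of these markers in the retinin value was not tested.

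Crys separated the arms. It was higher in KayKD than in Driver heads, at 80.4, 80.3, 80.2 and 125.5 CPM against 41.1, 40.9, 37.8 and 32.9 CPM on day 15 (1.39 ± 0.19, adjusted p = 4.0e-05) and at 156, 140, 158 and 202 CPM against 67.0, 52.4, 52.8 and 90.9 CPM on day 5 (1.32 ± 0.19, adjusted p = 6.6e-05). In KayWT heads it was lower, at 22.5, 25.5, 17.4 and 14.5 CPM on day 15 (−0.87, adjusted p = 0.0131) and at 26.9, 24.1, 22.8 and 17.8 CPM on day 5 (−1.44, adjusted p = 1.7e-05). Neither arm overlapped with Driver heads on either day. KaySCR heads held 38.5, 44.8, 34.0 and 35.0 CPM on day 5 (−0.78, adjusted p = 0.022) and 24.5, 24.7, 22.0 and 34.6 CPM on day 15 (−0.49, adjusted p = 0.40). Some of these calls rested on single libraries. The KayWT call of day 15 was lost without KayWT day 15 replicate 3 or 4 (−0.81 to −0.76, adjusted p 0.071 to 0.078), leaving 1 called member. The KaySCR call of day 5 was lost without Driver day 5 replicate 4 or KaySCR day 5 replicate 1, 3 or 4 (−0.78 to −0.62, adjusted p 0.058 to 0.086).

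**Figure D5:**
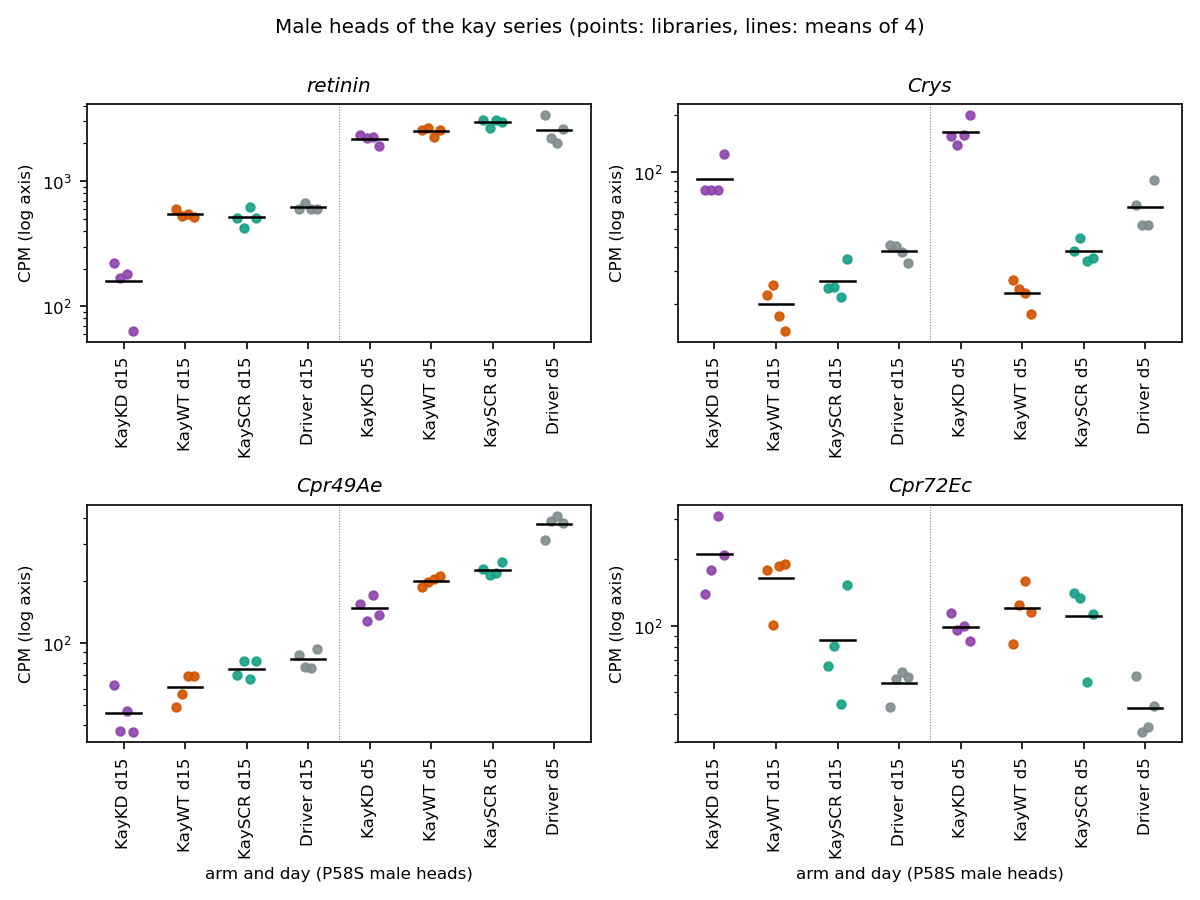
CPM (log axis) of retinin, Crys, Cpr49Ae and Cpr72Ec in KayKD, KayWT, KaySCR and Driver male heads on day 15 (left) and day 5 (right); each point is 1 library. Crys is highest in KayKD heads on both days (80.2 to 202 CPM), and retinin is lowest in KayKD heads on day 15 (63.7 to 222 CPM).

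Cpr72Ec was higher in the arms than in Driver heads. On day 15 KayKD libraries stood at 139, 178, 312 and 208 CPM and KayWT libraries at 178, 101, 185 and 189 CPM, against 43.1, 57.4, 62.0 and 58.6 CPM in Driver libraries. The log2 fold changes were 2.04 ± 0.31 (adjusted p = 0.00010) and 1.63 ± 0.30 (adjusted p = 0.0020). On day 5 KayKD libraries at 114, 95.9, 99.0 and 85.4 CPM and KayWT libraries at 82.2, 123, 158 and 115 CPM stood against Driver libraries at 59.2, 33.3, 34.8 and 43.6 CPM. These gave 1.21 (adjusted p = 0.0221) for KayKD and 1.53 (adjusted p = 0.0025) for KayWT. Neither arm overlapped with Driver heads on either day. KaySCR libraries overlapped: 140, 133, 55.5 and 113 CPM on day 5 (1.36, adjusted p = 0.0126) and 65.5, 80.9, 44.3 and 152 CPM on day 15 (0.67, adjusted p = 0.53). The KayKD call of day 5 was lost without Driver day 5 replicate 2 or 3 or KayKD day 5 replicate 1 or 3 (1.09 to 1.19, adjusted p 0.053 to 0.092), and the KaySCR call without Driver day 5 replicate 2 or 3 or KaySCR day 5 replicate 1 (1.23 to 1.31, adjusted p 0.051 to 0.069). The fourth lens gene, Cpr66D, lay at 0 to 3.95 CPM in this set and was called in no arm.

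Cpr49Ae was lower on day 5 in all 3 arms, at 154, 128, 170 and 136 CPM in KayKD, 186, 196, 203 and 211 CPM in KayWT and 227, 213, 217 and 246 CPM in KaySCR heads, against 313, 390, 412 and 381 CPM in Driver heads. All 12 libraries of the arms lay below the 4 Driver libraries they share. For calls shared by the arms, a change in the arms and one in the Driver libraries cannot be told apart. Muscle markers summed to 2006 to 2258 CPM in Driver heads on day 5. They summed to 1577 to 1750 CPM in KayKD, 1481 to 1704 CPM in KayWT and 1597 to 1930 CPM in KaySCR heads. The part of this in the Cpr49Ae values was not tested. The log2 fold changes of Cpr49Ae were −1.34 ± 0.14 (adjusted p = 2.0e-07), −0.85 (adjusted p = 0.00021) and −0.74 (adjusted p = 0.0019) in KayKD, KayWT and KaySCR. On day 15 Cpr49Ae in KayKD libraries, at 62.4, 37.4, 46.8 and 37.2 CPM, was called lower than in the Driver libraries at 87.0, 76.1, 75.7 and 93.6 CPM (−0.78, adjusted p = 0.0021). TwdlG was higher on day 5 in KayKD (12.9, 10.8, 16.7 and 14.1 CPM; 1.49, adjusted p = 0.0101), KayWT (13.8, 19.8, 12.5 and 9.72 CPM; 1.59, adjusted p = 0.0036) and KaySCR heads (7.82, 10.1, 17.6 and 12.8 CPM; 1.29, adjusted p = 0.0315) than in Driver heads (2.97, 7.24, 8.08 and 1.80 CPM). KaySCR overlapped with Driver there, and its call was lost without Driver day 5 replicate 1 or 4 or KaySCR day 5 replicate 3 or 4 (1.04 to 1.27, adjusted p 0.075 to 0.13). On day 15 TwdlG in KayWT heads, at 14.7 to 21.7 CPM against 6.86 to 11.2 CPM in Driver heads, gave 1.00 (adjusted p = 0.11), which passed with DESeq2 (adjusted p = 0.037).

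Other calls against Driver heads were few. Cpr47Ee was lower on day 5 in KayKD (18.4, 19.5, 20.5 and 5.80 CPM; −1.22, adjusted p = 0.0094) and KayWT heads (22.3, 20.2, 16.6 and 21.6 CPM; −0.92, adjusted p = 0.0382) than in Driver heads (30.2, 43.9, 46.6 and 40.0 CPM). KaySCR libraries of 17.4, 23.8, 17.4 and 24.6 CPM also lay below all Driver libraries (−0.94, adjusted p = 0.0554; −1.07, adjusted p = 0.020, without Driver day 5 replicate 1). The KayWT call was lost without any 1 library except Driver day 5 replicate 1 (−0.98 to −0.81, adjusted p 0.054 to 0.13). Cpr76Bc was higher on day 5 in KayKD (13.6, 20.6, 10.0 and 24.0 CPM; 1.41, adjusted p = 0.0124) and KayWT heads (12.2, 17.9, 12.9 and 18.2 CPM; 1.34, adjusted p = 0.012) than in Driver heads (6.37, 8.45, 3.73 and 5.85 CPM), and in KaySCR heads it gave 1.02 (adjusted p = 0.091). Its KayKD call was lost without Driver day 5 replicate 3 or KayKD day 5 replicate 2 (1.24 to 1.28, adjusted p 0.052 to 0.053). Cpr64Ad was higher in KayWT heads on day 5, at 6.41, 6.90, 6.55 and 7.85 CPM against 0.991, 1.93, 0 and 0 CPM in Driver heads (2.98 ± 0.69, adjusted p = 0.0075).

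The calls of Cpr65Au on day 5 and Cpr11B on day 15 were made in KaySCR heads and not in the other arms; a difference between arms was not tested. Cpr65Au was lower on day 5, at 419, 342, 402 and 403 CPM in KaySCR heads against 452, 633, 724 and 413 CPM in Driver heads (−0.53, adjusted p = 0.040). It was lost without Driver day 5 replicate 2 or 3 or any 1 KaySCR day 5 library (−0.56 to −0.33, adjusted p 0.064 to 0.31). Cpr11B was higher on day 15, at 25.8, 22.4, 19.1 and 16.0 CPM in KaySCR heads against 10.5, 6.34, 7.84 and 5.74 CPM in Driver heads (1.50 ± 0.37, adjusted p = 0.0329). It was lost without Driver day 15 replicate 2, 3 or 4 or KaySCR day 15 replicate 1 or 2 (1.38 to 1.52, adjusted p 0.093 to 0.17), which left 0 called members. The KaySCR count of day 5 was 3 without Driver day 5 replicate 2, 3 or 4 and 2 without KaySCR day 5 replicate 1, 3 or 4.

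KayKD and KayWT, compared directly after the values had been seen, differed in Crys on both days. The log2 fold change of KayKD over KayWT was 2.26 ± 0.20 on day 15 (adjusted p = 3.3e-09) and 2.76 ± 0.20 on day 5 (adjusted p = 3.5e-11), a fold of 6.78. Retinin was lower in KayKD on day 15 (−1.77 ± 0.19, adjusted p = 1.7e-07), at 63.7 to 222 CPM against 516 to 598 CPM in KayWT heads. Cpr49Ae was lower in KayKD on day 5 (−0.49, adjusted p = 0.0463). This call was lost without any 1 library except KayKD day 5 replicate 3 (−0.52 to −0.44, adjusted p 0.061 to 0.12) and without a filter on low counts (adjusted p = 0.060), leaving 1 called member. With 2 called members on each day, the share of all genes called was 3.24% on day 5 and 2.31% on day 15. For the change of the effect against Driver heads from day 5 to day 15, edgeR called 0 of 27 members in KayWT and 0 in KaySCR, with 3 and 5 at an unadjusted p under 0.05 and 0 by DESeq2, where 0.112% and 0.0612% of all genes were called.

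The members summed over all 27 were lowest in KayKD heads on day 15. They held 986 ± 85.7 CPM in KayKD, 1275 ± 42.1 CPM in KayWT, 1265 ± 73.3 CPM in KaySCR and 1372 ± 49.7 CPM in Driver heads on that day, and 3292 ± 142, 3494 ± 199, 3947 ± 240 and 3834 ± 496 CPM in these groups on day 5 (SD, n = 4 each). Retinin made up 15.8% of the KayKD sum on day 15 and 65.8% on day 5.

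In female guts the members were scarce. Their sum averaged 66.2 CPM on day 20 and 63.7 CPM on day 5 in P58S guts and 69.5 CPM and 72.0 CPM in WT guts, against 1395, 2860, 1133 and 2801 CPM in the matching head groups. Of the 27, 12 averaged at least 1 CPM in any gut group and 15 in none. The 4 that averaged 5 CPM or more in some group were Cpr49Ae (16.9 to 39.0 CPM), Cpr67B (7.83 to 15.3 CPM), Crys (6.54 to 11.7 CPM) and Cpr51A (2.10 to 9.63 CPM). Single gut libraries of Cpr49Ae ranged from 6.14 to 75.4 CPM, so its groups overlapped. The other 18 were too low to test, and limma called 0 of 9 in the 4 gut comparisons, with 1 at an unadjusted p under 0.05 for P58S against WT on each day, 0 for P58S over time and 2 for WT over time. A fit with edgeR on recovered reads called 0. Among all 9036 genes 0.133%, 0.365%, 0.299% and 0.210% were called in these comparisons.

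Over the 34 comparisons 18 of the 27 members were called at least once, retinin in 14, Cpr49Ae in 13 and Crys in 12. No such count was made over all genes, of which up to 16.0% were called in a single comparison. The 9 members that were never called were Cpr51A, Cpr73D, Cpr60D, Cpr62Bc, Cpr47Ef, Cpr66D, Cpr92F, Cpr50Cb and Cpr64Ac. Cpr51A, with group means of 14.2 to 27.6 CPM in male heads, was the only one of these above 10 CPM on average. The mean of Cpr73D ranged from 6.21 to 13.4 CPM over the male groups, that of Cpr60D from 4.41 to 11.9 CPM, that of Cpr62Bc from 2.11 to 10.7 CPM and that of Cpr47Ef from 2.35 to 9.00 CPM. Those of Cpr92F, Cpr50Cb and Cpr64Ac lay between 0.177 and 3.40 CPM, near the level of single reads.

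Lists of 5 other groups of genes of cuticle biology were read beside the members. Of 33 cuticle protein genes outside the naming rule (the Lcp, Ccp, Acp, Pcp, Edg and similar genes), 10 were high enough to be tested in the first male set. With age 0 rose, and 2, 4, 2 and 3 fell for P58S days 15 and 20 and WT days 15 and 20 over day 5. Of all 9741 genes tested, 5.99%, 7.19%, 5.08% and 5.07% were called higher and 7.57%, 8.81%, 7.30% and 5.51% lower at these steps. Ccp84Ag fell by 2.40 and 3.56 in P58S heads and by 2.78 and 4.61 in WT heads on the log2 scale at these steps, and Vajk2 by 1.31, 0.95, 1.91 and 1.92. Ccp84Ag also fell in the second set, by 2.01 in KayKD, 2.45 in KayWT, 1.67 in KaySCR and 2.54 in Driver heads. The list's median for WT day 20 over day 5 was −0.49. Vajk2 was the only one called between P58S and WT, lower on day 5 (−0.97, adjusted p = 0.017). The shares of all genes given so far also apply to the age and genotype counts of the lists below.

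Of 34 tested genes of chitin synthesis, assembly and turnover, 6 rose and 2 fell for day 15 over day 5 in P58S heads, and 5 rose and 2 fell for day 20. In WT heads 2 rose and 6 fell for day 15 and 3 rose and 5 fell for day 20. Gasp, a chitin-binding protein of the airway lining, fell by 0.96 on the log2 scale in P58S and by 1.46 in WT heads on day 15. The chitin deacetylase genes serp and Cda5 fell in WT heads on day 15, by 1.23 and 0.61. The Idgf genes, which code for secreted chitinase-like proteins, made up most of the rises: Idgf5 gave 1.46, Idgf1 1.30 and Idgf4 0.53 for day 20 over day 5 in P58S heads, and Idgf1 1.03 and Idgf5 0.68 in WT heads.

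Of 16 tested tanning and pigmentation genes, t, which codes for the hydrolase that frees dopamine and histamine from their beta-alanine conjugates, was lower in P58S than in WT heads on days 5, 15 and 20 (−1.55, −1.19 and −1.90; adjusted p 3.5e-05, 0.0012 and 4.4e-06). The gene for tyrosine hydroxylase, ple, was lower on days 5 and 20 (−0.79 and −0.86; adjusted p 0.00096 and 0.00037), and 0 of the list were higher on any day. Both also act in neurons and glia of the head. With age in WT heads 1 rose and 5 fell on day 15, among them e (−0.85), ple (−0.64) and Ddc (−0.36). A list of apical matrix genes, most of them for zona pellucida proteins that link cells to the cuticle above them, had 8 tested members. It also held trn and Fur1, a leucine-rich repeat protein and a protease that are not zona pellucida proteins. Of the 8, 0 rose and 2 fell in P58S heads and 3 fell in WT heads on day 15, tyn by 0.54 and 0.55 and pio by 0.37 and 0.61. Of 18 tested regulators of epidermis and moulting, the nuclear receptor gene Hr38 was the only one called between P58S and WT, higher on day 20 (1.56, adjusted p = 3.6e-05). On day 5 the ecdysone response gene Hr4 was higher in KayWT (2.54) and KaySCR heads (2.56) than in the Driver heads they share, and Kr-h1, a juvenile hormone response gene, was lower (−0.82 and −0.72).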

How the data were processed

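Total RNA of heads and guts was extracted with phenol and chloroform and sequenced from transcript 3′ ends, with one kit for males and an older version for females, per the labels' protocols. Reads were placed on dm6, per the submitters' processing notes; the aligner, the counter, the annotation and the strand setting are not stated there.

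The authors' deposited male table holds whole-number counts of reads per gene in 56 head libraries, and 2 deposited female tables hold log2 values of CPM above a floor, from which reads were recovered: of 155181 low values, up to 60 reads, 100% were whole within 0.1 read. CPM values of females were derived from these deposited log2 values. Count data had been foreseen for males and CPM for females, so limma was run on log2(CPM + 1) computed from the log2 tables. Rows that name no gene took 0.170% to 0.260% of male reads and were left out.

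Male counts were fitted with edgeR 4.0.16 (quasi-likelihood, TMM, filterByExpr) in 1 model for the 24 P58S and WT libraries and 1 for the 32 libraries of the kay set. The SE was taken from the fold change and its F statistic. Female values were fitted with limma 3.58.1 (trend), keeping genes at 1 CPM or more in at least 4 libraries. Calls have a Benjamini-Hochberg adjusted p under 0.05 over all genes tested. Scripts were tested on simulated data. Alternatives were DESeq2 1.42.0, no filter on low values, a pseudocount of 0.25 in place of 1, edgeR on recovered female reads, a replicate block and leaving out each library. R was version 4.3.3.

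The 27 members, the lists and the 34 comparisons were chosen with earlier results of these data known; 7 comparisons (day 20 over day 15, KayKD over KayWT, and the change of each arm's effect with age) were added after the values were seen. Named in full are the 4 lens genes, the 5 most abundant members and the called members, at most 5 in each direction by adjusted p in a comparison; further called members and 21 uncalled values were named after they were seen. List genes are named where called, at most 4 in a comparison. Of 203 names in 14 lists and marker sets, 8 matched no gene. No sequences are shown. Replicates were compared for duplication (lowest chi-square per gene 3.37, so none was taken as a copy), and 1 library that stood far from its group is named with the results. Limits for counts of 0 cover counting error only.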

Additional observations from a re-analysis of the deposited data

Results flagged for a closer look

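Among 196 group and gene combinations examined for 1 library that stood far from the other 3 of its group (11 genes, gap over range above Dixon's 95% critical value for 4 samples), 13 did; chance alone gives about 1 in 20. For retinin this was Driver day 15 replicate 2, at 670.2 CPM against 596.5 to 601.6 CPM in the others. Cpr72Ec had 100.6 CPM in KayWT day 15 replicate 2 (others 178.3 to 188.5 CPM), and Cpr67B 24.23 CPM in Driver day 5 replicate 3 (others 84.56 to 88.6 CPM). Crys stood out high in 3 groups: 108.7 CPM in female WT day 5 heads, replicate 4 (others 0 to 10.67 CPM), 43.57 CPM in female WT day 20 heads, replicate 1 (others 9.212 to 13.66 CPM), and 125.5 CPM in KayKD day 15 replicate 4 (others 80.2 to 80.41 CPM). That KayKD library also had the lowest retinin value of all head libraries, 63.7 CPM. Cpr66D had 0.2738 CPM, or 1 read, in female WT day 5 replicate 1 with the others at 0, and 3.138 CPM in KayKD day 5 replicate 2 (others 0 to 0.4608 CPM). With the other 3 at 0 any read passes this rule. A 0 there allows up to 15.0, 2.00 and 7.77 CPM in replicates 2, 3 and 4, so that flag does not set the library apart. TwdlG had 5.346 CPM in female WT day 20 replicate 3 (others 0 to 0.3685 CPM), and TwdlT 5.213 CPM in KaySCR day 5 replicate 1 (others 3.244 to 3.514 CPM). Cpr11B had 43.19 CPM in P58S day 5 replicate 3 (others 25.31 to 27.46 CPM) and 12.48 CPM in KayKD day 15 replicate 1 (others 6.279 to 7.147 CPM). Cpr100A had 10.29 CPM in KayWT day 5 replicate 1 (others 17.33 to 17.73 CPM).

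The effect of P58S over WT on Cpr11B differed between days 20 and 5 by 1.179 on the log2 scale, and the effect of KayKD over Driver on retinin differed between days 15 and 5 by −1.656, each by a test of the difference itself with edgeR.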

How the results depend on the processing

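Among the called and named gene values no setting turned a direction. Of 100 calls, 33 were lost when some single library was left out, and the libraries are named beside those results; retinin, Cpr100A and the age calls of Cpr49Ae passed in every such fit. With DESeq2 the count of called members was 5 for P58S against WT on day 5, 2 on day 15, 8 for P58S day 15 over day 5, 3 for the change of the P58S effect from day 5 to day 20 and 4 for KayWT against Driver on day 15. Without a filter on low counts it was 2 for P58S against WT on day 15, 3 for that change of effect and 1 for KayKD against KayWT on day 5. Replicate numbers did not pair the libraries (correlations of deviations −0.401 to 0.27 over 29 comparisons, 0 of them with all pairs over 0.1). With the number as a replicate block the counts were 0 for the change of the P58S effect to day 20 (Cpr11B at 1.19, adjusted p = 0.054) and 1 for KayKD against KayWT on day 5, and of 121 gene values 118 kept their side of the threshold and 3 lost it: that of Cpr11B, Cpr67B for WT day 15 over day 5 (0.36, adjusted p = 0.060) and Cpr49Ae for KayKD against KayWT on day 5 (adjusted p = 0.053). For day 20 over day 5 in female heads, edgeR on recovered reads gave 2 in WT, and leaving out the 2 shallowest WT day 5 libraries gave 4 in WT and 2 in P58S, the second being Cpr49Ae.

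Leaving out each library in turn, counts ranged over 1 to 4, 0 to 2 and 2 to 3 for P58S against WT on days 5, 15 and 20, 5 to 7 and 6 to 9 for P58S days 15 and 20 over day 5, and 5 to 7 and 9 to 11 for WT. They ranged over 0 to 2 for the change of the P58S effect to day 20, 0 to 1 for P58S and 3 to 4 for WT day 20 over day 15. Against Driver on days 5 and 15 they ranged over 4 to 6 and 4 to 4 for KayKD, 6 to 8 and 1 to 2 for KayWT, and 2 to 5 and 0 to 1 for KaySCR. With age they ranged over 6 to 9 in KayKD, 3 to 5 in KayWT, 3 to 4 in KaySCR and 5 to 7 in Driver heads, over 1 to 2 and 2 to 3 for KayKD against KayWT on days 5 and 15, and over 1 to 4 for female WT heads over time. The causes of these moves were not tested. Depth limits the members under 10 CPM, and in female WT day 5 heads a member at 0 in replicate 2 could have stood at up to 15.0 CPM.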
